A study of Mus musculus with 7 samples.

Results

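Argonaute crosslink positions were examined in 6 mouse genes of synaptic adhesion: the neurexins Nrxn2 and Nrxn3, the scaffold gene Grip1, the neural cell adhesion molecule Ncam1, and the synaptic cell adhesion molecules Cadm1 and Cadm2. A position belonged to a gene when it lay within it on the same strand in GENCODE release M21 (mm10). The genes were selected on results from these same tables, the number and the intronic placement of their positions, so these numbers and shares are descriptions with no test. Of the 14054 positions in the crosslink table, 114 lay in 5 of the 6 genes, and Nrxn2 had none in the table analysed here. Of the 394 distinct miR-216 sites, 1 lay in these genes.

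The positions come from PAR-CLIP, in which RNA labelled with 4-thiouridine is linked by ultraviolet light to the protein that touches it and is then pulled down with that protein. The tissue was retina from newborn CD-1 mice (postnatal day 0), with 6 retinas pooled per library. The retinas were kept as explants for 24 h with 20% serum and 0.1 mM 4-thiouridine. They were irradiated at 365 nm with 300 mJ per cm2. An antibody against Argonaute (2A8) was used for 5 libraries and a mouse IgG1 isotype control for 2, and both groups had the same labelling and irradiation. The crosslink table gives for each position the number of Argonaute libraries that share it, from 2 to 5, with no value per library, and the IgG libraries were not analysed here. Read depth is unknown and no RNA levels were analysed here, so retinal marker genes could not be checked, and a gene with more RNA and a gene with more Argonaute per RNA cannot be told apart. The intervals given are exact 95% intervals for counting error only, and positions in 1 gene are not independent of each other.

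Argonaute proteins carry microRNAs and hold them against messenger RNAs, mostly in 3′ UTRs, where pairing to the microRNA seed (bases 2 to 8) lowers translation and stability of the message. Neurexins are presynaptic receptors that bind neuroligins and other partners across the synaptic cleft. Grip1 holds AMPA-type glutamate receptors and other membrane proteins through its PDZ domains. Ncam1, Cadm1 and Cadm2 are adhesion proteins of the immunoglobulin superfamily that bind between neighbouring cells, and Ncam1 is made with different membrane anchors by alternative splicing.

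Most positions in these genes were intronic. Introns held 89 of the 114 positions (78.1%, 69.4 to 85.3), beside 18.7% of the positions in all genes. All 6 genes have more than 100 kb of intron, and among all protein-coding genes with at least 100 kb of intron 45.4% of positions were intronic (1670 of 3679). Among 45 other adhesion genes of such length the share was 85.5%, or 72.7% without Nlgn1. Nrxn3 had 26 intronic and 3 exonic positions, Grip1 had 21 and 1, and Cadm2 had 13 and 2. Cadm1 had 12 intronic and 5 exonic positions. Ncam1 was the most exonic of the 5 genes, with 17 intronic and 14 exonic positions, and without it the intronic share was 86.7%. Of the 25 exonic positions, 18 lay in 3′ UTRs, 4 in coding sequence and 3 in 5′ UTRs. No position overlapped another gene on the same strand. By gene, 25 of the 29 positions in Nrxn3, 28 of 31 in Ncam1, 20 of 22 in Grip1, 15 of 17 in Cadm1 and 14 of 15 in Cadm2 were in 2 libraries, the fewest that the table lists.

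The genes range widely in length (mm10). Nrxn3 (ENSMUSG00000066392.11) spans 1612 kb on the plus strand of chromosome 12, from 88722876 to 90334935. Cadm2 (ENSMUSG00000064115.13) spans 965 kb on the minus strand of chromosome 16, from 66655421 to 67620908. Grip1 (ENSMUSG00000034813.17) spans 633 kb on the plus strand of chromosome 10, from 119453830 to 120087261. Cadm1 (ENSMUSG00000032076.19, plus strand, 47530173 to 47857637) and Ncam1 (ENSMUSG00000039542.16, minus strand, 49502136 to 49798925) lie on chromosome 9 and span 327 and 297 kb. Nrxn2 (ENSMUSG00000033768.17) is the shortest, with 125 kb on the plus strand of chromosome 19, from 6418731 to 6544169.

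**Figure D1:**
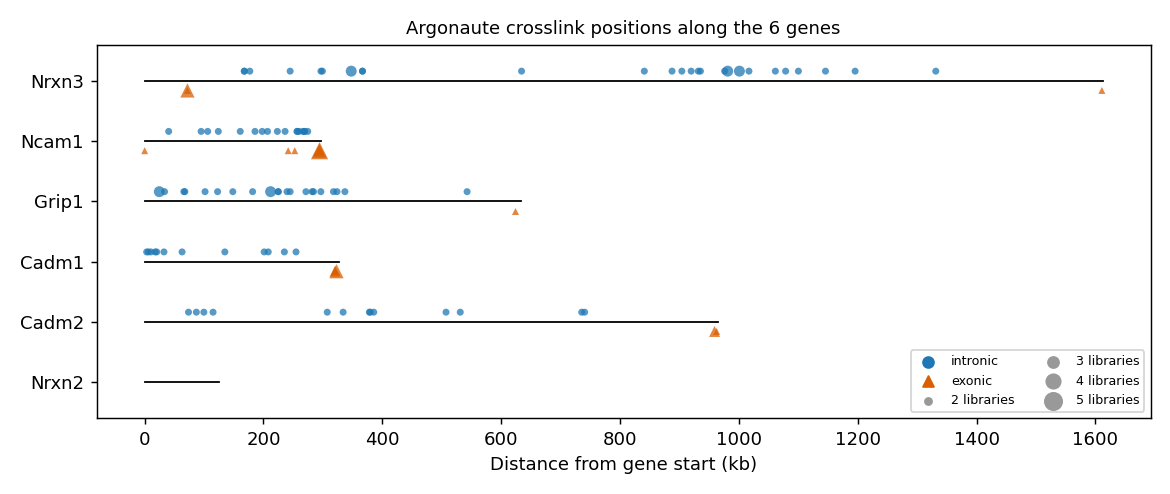
Crosslink positions along each gene, with distance from the gene start in kb on the x axis, circles for intronic and triangles for exonic positions, and symbol size for the number of libraries from 2 to 5. Most exonic positions of Ncam1 and all of those of Cadm1 and Cadm2 lie at the end of the gene, while the intronic positions are spread over the introns.

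Ncam1 held the only position of the 114 found in 5 libraries and 1 of the 3 found in 4, and both had a match to the miR-30 seed. The 3′ UTR of Ncam1-204 (3310 nt from the last coding base, stop codon included) held 10 positions, or 3.02 per kb. The position at 49504456 on chromosome 9 (minus strand, exon 18 of 18, 990 nt after the last coding base) was found in 5 libraries. The position at 49504628, which lies 818 nt after the last coding base, was found in 4. The other 8 positions in this UTR were in 2 libraries each. The sequences below show these positions and the family's microRNA; capitals mark the seed in the microRNA (5′ to 3′, from RefSeq, GRCm38.p6) and its 7mer match in the transcript (5′ to 3′, from GENCODE).
miR-30a-5p: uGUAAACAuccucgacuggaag
Ncam1 49504456: gatgatTGTTTACagtgg
Ncam1 49504628: tccagTGTTTACaagtt

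At 49504456 the match TGTTTAC started 1 nt after the crosslinked T, and at 49504628 it started at the crosslinked T itself. In both cases the base after the match was A, which makes an 8mer. These were the only miR-30 7mer matches in that UTR, so 2 of 2 had a crosslink within 20 nt. The UTR held 6 matches to all the families searched, and 4 of them had a crosslink within 20 nt. Besides those to miR-30, the matches with a crosslink lay at 49503720, a position in 2 libraries. There TGCACTG (miR-148 and miR-152) started 2 nt and CACTGTG (miR-128) started 4 nt after the crosslink, and these matches overlap each other. The matches to miR-27 and to miR-1 and miR-206 had no crosslink within 20 nt. The TGTTTAC match was present in 2.41% of the 10936 windows (20 nt on either side) around exonic crosslinks of all genes, TGCACTG in 1.18% and CACTGTG in 0.759%.

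Ncam1 also had crosslinks in its coding sequence and 5′ UTR. In coding sequence, the position at 49505489 in exon 18 of 18 was found in 3 libraries, and those at 49546175 (exon 9) and 49557193 (exon 8) in 2 each. None of these 3 had a 7mer match within 20 nt. The 5′ UTR position at 49798735 was in 2 libraries and had a match to miR-103 and miR-107, ATGCTGC, 6 nt after it. Per length, the exons of Ncam1 held 1.62 positions per kb (0.883 to 2.71), and its rank among 22028 protein-coding genes by this density was 110.

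Cadm1 and Cadm2 encode related adhesion proteins, and their exonic crosslinks lay mostly in 3′ UTRs. In the 3′ UTR of Cadm2-201 (7675 nt) both positions had a match that started 1 nt after the crosslink. The position at 66661806 on chromosome 16 (minus strand, exon 10 of 10) was in 3 libraries and had an 8mer to miR-182, TTGCCAA, followed directly by a match to miR-204 and miR-211, AAAGGGA. The position at 66658268, 3538 nt further on, was in 2 libraries and had a let-7 match, CTACCTC. In the 3′ UTR of Cadm1 (2998 nt in Cadm1-204, chromosome 9, plus strand) 1 of 4 positions had such a match: at 47851088, in 2 libraries, TGCTGCT (miR-15, miR-16, miR-195 and miR-497) started 1 nt after the crosslink. The lines below show these matches in capitals beside the microRNAs, with seeds in capitals.
miR-182-5p: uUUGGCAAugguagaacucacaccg
Cadm2 66661806: gttgatTTGCCAAaaagg
let-7a-5p: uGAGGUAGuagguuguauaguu
Cadm2 66658268: attcttCTACCTCtcact
miR-15a-5p: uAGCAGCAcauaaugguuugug
Cadm1 47851088: actcttTGCTGCTgccca

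TTGCCAA was present in 2.05% of all windows, AAAGGGA in 0.768%, CTACCTC in 2.08% and TGCTGCT in 2.99%. The UTR of Cadm2-201 held 27 matches to the families searched, of which 3 had a crosslink within 20 nt, and the UTR of Cadm1-204 held 6, of which 1 did. Cadm1 had its most recurrent position at 47853152, in 4 libraries and 2765 nt after the last coding base. That position had no 7mer match to bases 2 to 8, but TGCCAAA began at the crosslinked T; its first 6 bases pair with bases 2 to 7 of both miR-182 and miR-96, and its last base is A (a 7mer-A1 match). TGCCAAA was present in 3.95% of all windows. With 7mer-A1 matches allowed as well, 8 of the 25 exonic crosslinks (14.9% to 53.5%) had a match, beside 48.3% in all genes. The Cadm1 position at 47850738, in 3 libraries, and those at 47850546 (3′ UTR) and 47850335 (coding sequence), in 2 each, had no match of either kind. The next lines show both recurrent Cadm1 positions, with the 7mer-A1 match of the first and the crosslinked T of the second in capitals.
Cadm1 47853152: attgaTGCCAAAtaagc
Cadm1 47850738: attgcagaaaattcTgtgccttgtttttc

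**Figure D2:**
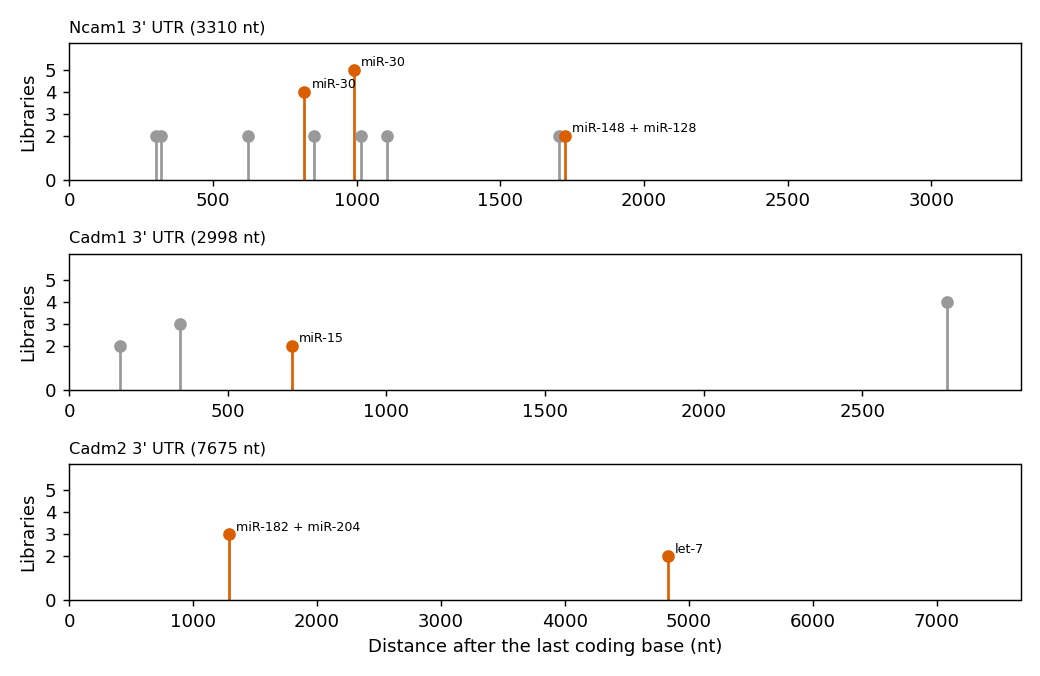
Crosslinks in 3′ UTRs of Ncam1, Cadm1 and Cadm2, with distance after the last coding base in nt on the x axis and the number of libraries on the y axis. Orange stems have a 7mer match to a named microRNA family within 20 nt and grey stems have none; the tallest stems of Ncam1, in 5 and 4 libraries, both have a miR-30 match.

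The exonic crosslinks of Nrxn3 and Grip1 had no 7mer match. In Nrxn3 the positions at 88794985 and 88795061 on chromosome 12 (plus strand) lay 76 nt apart in the 5′ UTR in exon 1 of 20 of Nrxn3-205, in 2 and 4 libraries. The position in 4 libraries was the most recurrent of this gene, and its surroundings are shown with the crosslinked T in capitals.
Nrxn3 88795061: gtgtgtgttcttctTgtgtcttctcttgt

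The third exonic position of Nrxn3, at 90333731 in the 3′ UTR, was in 2 libraries. The single exonic position of Grip1, at 120076962 on chromosome 10 in the 3′ UTR of Grip1-201, was in 2 libraries. The 3′ UTRs of Nrxn3-205 (2528 nt) and Grip1-201 (1625 nt) held 10 and 9 matches to the families searched, and none had a crosslink within 20 nt. Over the 25 exonic crosslinks of the 5 genes, 7 had a 7mer match within 20 nt (28.0%, 12.1 to 49.4), beside 36.6% of exonic crosslinks in all genes, a share that lies inside the interval. In 6 of these 7 the match nearest the crosslink began from 0 to 3 nt after it. Matches of this placement were present at 24.0% of the 25 crosslinks (9.36 to 45.1) and at 23.9% of those in all genes. With an 8mer required, 3 of the 25 had a match (12.0%), beside 19.1% in all genes. Of the 7 exonic crosslinks in 3 or more libraries, 3 had a 7mer match (42.9%, 9.90 to 81.6). The share was 46.9% for such exonic crosslinks in all genes.

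Introns of these genes are long, and most intronic positions lay far from exons, least so in Ncam1. The median distance to the nearest annotated exon of the gene was 57517 nt, with a range from 143 to 333388 nt. Of the 89 positions, 70 were more than 10000 nt away. By gene the median ran from 3677 nt in Ncam1 and 16157 nt in Cadm1 to 136364 nt in Cadm2. The distances were not computed for all genes or compared with those given by intron length alone. None lay within 100 nt of an exon, and 80 were in introns of at least 50 kb. The tables give no sequence for these positions and no genome sequence was used here, so seed matches were not searched in introns.

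In Grip1, 20 of 21 intronic positions lay in the first intron of its longest transcripts. This intron (443 kb in ENSMUST00000147356.8, 119454423 to 119897714 on chromosome 10) made up 70.4% of the intron length and held 95.2% of the intronic positions. These 20 lay between 119478690 and 119790937, upstream of every basic coding transcript that starts inside the gene, the first of which begins at 119819389, so they are within only 3 of the 12 basic coding transcripts. The positions at 119478690 and 119665922 were found in 3 libraries and all others in 2.

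In Nrxn3, 24 of 26 intronic positions fell in a pair of introns. Neurexin genes are known to make long alpha and shorter beta proteins from separate promoters. Intron 14 of Nrxn3-205 (443 kb, 89533011 to 89976346) held 15 positions, or 57.7% of the intronic positions on 28.9% of the intron length. Intron 3 (337 kb, 88850309 to 89187021) held 9, or 34.6% on 22.0%. Introns 9 and 15 held 1 each. The shorter transcripts Nrxn3-202 and Nrxn3-203, with 7 and 6 exons, begin at 89812483, inside intron 14. Of the 26 intronic positions, 22 lay upstream of that start. The last of these, at 89801562, lies at 66.9% of the gene's length. Most of the gene therefore also lies upstream of that start, and a preference for either side was not tested. The intronic positions at 89070614, 89704101 and 89723831 were found in 3 libraries, and the other 23 in 2. The gene's nearest pair of intronic positions, 89089548 and 89089565, lay 17 nt apart.

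Cadm1 and Cadm2 had most of their intronic positions in intron 1. All 12 of Cadm1 lay in the first intron of ENSMUST00000143026.7 (257 kb, 79.0% of the intron length), from 47533704 to 47785037. In Cadm2, 11 of 13 lay in the first intron (667 kb, 69.8% of the intron length) of Cadm2-201, and introns 2 and 3 held 1 each. All 25 of these intronic positions were in 2 libraries. Ncam1 differed in that its intronic positions had a second concentration near the end of the gene. Intron 1 of Ncam1-204 (229 kb, 78.7% of the intron length) held 9 of 17, or 3.93 per 100 kb. Intron 13 (19.4 kb, 49523647 to 49543010, 6.66% of the intron length) held 7, or 36.1 per 100 kb. Other Ncam1 transcripts have exons inside intron 13, among them the last exon of Ncam1-203, and the 7 positions lay from 143 to 1787 nt from the nearest exon. All 17 intronic Ncam1 positions were in 2 libraries.

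Per length of intron, the 5 genes with positions fell in the order Ncam1, Cadm1, Grip1, Nrxn3 and Cadm2. Ncam1 had 5.90 intronic positions per 100 kb of intron (3.44 to 9.45), Cadm1 3.79 (1.96 to 6.61) and Grip1 3.36 (2.08 to 5.13). Nrxn3 had 1.63 (1.06 to 2.38) and Cadm2 1.36 (0.724 to 2.33). The intervals of neighbours in this order overlapped. Because the genes were selected on such counts, the order is a description and differences between the genes were not tested. In Ncam1, intron 13 held 7 of the 17 intronic positions on 6.66% of the intron length. Among 2262 protein-coding genes with at least 100 kb of intron, these densities ranked 4, 12, 16, 79 and 117, and the pooled density over all 2262 was 0.281. Nrxn2 is a short gene by comparison, with 112 kb of intron, where a count of 0 has an exact upper limit of 3.30 positions per 100 kb (2.69 for 3 counts), which is above the densities of Nrxn3 and Cadm2. Its 13.8 kb of exon give an exact upper limit of 0.267 exonic positions per kb (0.217 for 3 counts), beside 0.238 (0.0491 to 0.696) in Nrxn3. Lower intronic or exonic densities in Nrxn2 than in Nrxn3 or Cadm2 were therefore not detectable at these counts. Exons were denser than introns in each of the other 5 genes, from 3.69 times in Grip1, which rests on 1 exonic position, to 27.4 times in Ncam1. Over all 2262 long genes the pooled ratio was 36.0, above that of each of the 5 genes.

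**Figure D3:**
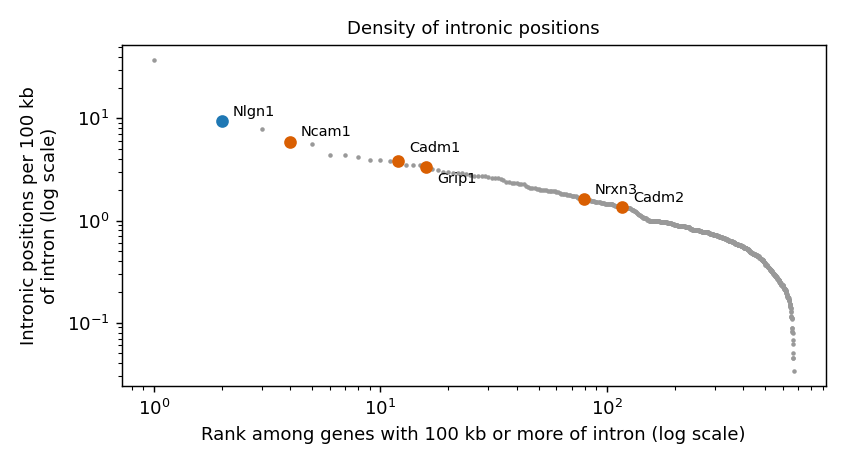
Intronic positions per 100 kb of intron (y axis, log scale) against rank (x axis, log scale) for the 668 of 2262 long protein-coding genes with an intronic position. Orange points are the 5 genes with positions, from Ncam1 at rank 4 to Cadm2 at rank 117, and the blue point is Nlgn1 at rank 2.

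Exonic positions were shared by more libraries than intronic ones. Of the 25 exonic positions 7 were in 3 or more libraries (28.0%, 12.1 to 49.4), and of the 89 intronic positions 5 were (5.62%, 1.85 to 12.6), beside 29.6% of exonic and 8.97% of intronic positions in all genes. The odds ratio was 6.39 (1.55 to 28.7; p = 0.00414 by Fisher's exact test, two-sided). In all other genes the odds ratio was 4.21 (3.64 to 4.88), and its difference from 6.39 was not tested. In Ncam1 3 of 14 exonic and 0 of 17 intronic positions were in 3 or more libraries, in Cadm1 2 of 5 and 0 of 12, and in Cadm2 1 of 2 and 0 of 13. In Nrxn3 these counts were 1 of 3 and 3 of 26, and Grip1 had the opposite order, with 0 of 1 and 2 of 21. All 4 positions in 4 or more libraries were exonic (49504456 and 49504628 in Ncam1, 47853152 in Cadm1 and 88795061 in Nrxn3), and 0 of 89 intronic positions reached 4, with an exact upper limit of 4.06% (3.37% for 3 counts). The test treats positions as independent, which positions of 1 gene are not, so its p-value is only a description. It also uses the split into introns and exons on which the genes were selected. The same order was seen in all other genes, so it is not particular to these genes.

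**Figure D4:**
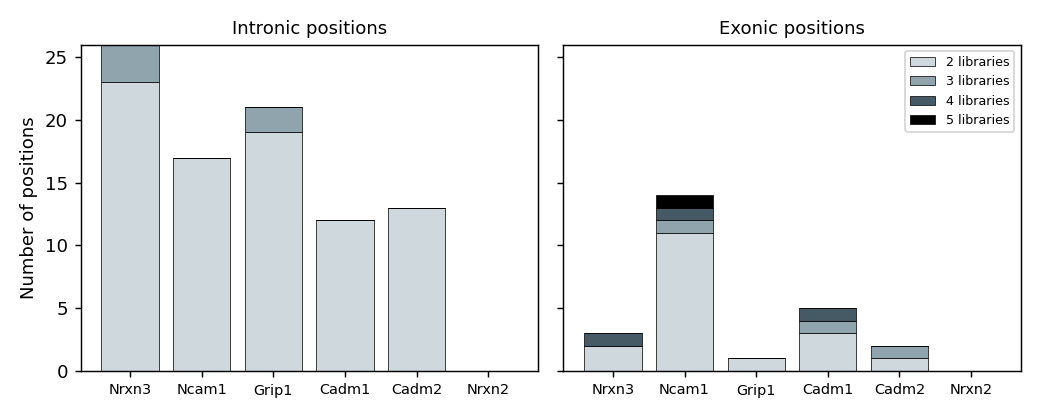
Number of intronic (left) and exonic (right) positions per gene, with shading for the number of libraries that share a position. Intronic positions of Ncam1, Cadm1 and Cadm2 are all in 2 libraries, and positions in 4 or 5 libraries appear only among the exonic ones.

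**Figure D5:**
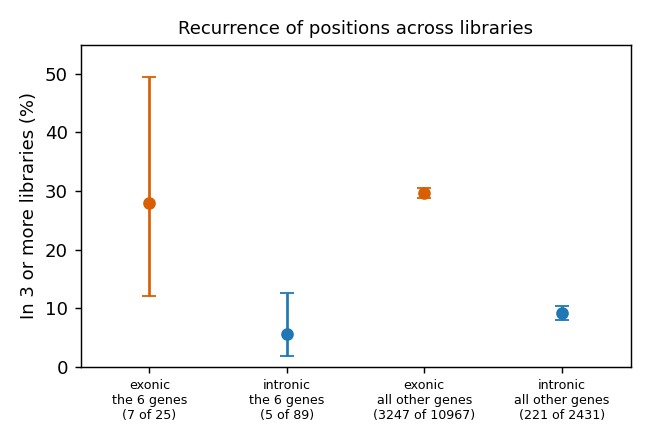
Share of positions found in 3 or more libraries, with exact 95% intervals, for exonic and intronic positions in the 6 genes and in all other genes. The exonic and intronic points of the 6 genes are 28.0% and 5.62%.

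Clusters, meaning positions of 1 gene each within 50 nt of the next, were also mainly exonic. They held 10 of the 114 positions (8.77%, 4.29 to 15.5), beside 19.1% in all genes. Of the exonic positions 8 of 25 were clustered (exact interval 14.9% to 53.5%, beside 22.6% in all genes), all in the 3′ UTR of Ncam1, where they formed 4 pairs 17 to 35 nt apart. Both positions with a miR-30 match were in such pairs, with their partners, in 2 libraries each, at 49504593 and 49504432. Of the intronic positions 2 of 89 were clustered (2.25%, 0.273 to 7.88), the pair in intron 3 of Nrxn3 named above, beside 3.57% of intronic positions in all genes. The median distance to the nearest position of the same gene was 9149 nt for intronic and 192 nt for exonic positions.

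The miR-216 table had 1 entry in these genes, and it was intronic. It lay in Grip1 at 119996522 to 119996527 on chromosome 10, was named for miR-216a, and had a score of 2. Its crosslink at 119996529 was 2 nt past the end of the match and in 2 libraries. The site is in intron 11 of 24 of ENSMUST00000147356.8, a 13267 nt intron, 3223 nt from the nearest exon, and it lies within all 12 basic coding transcripts, unlike the other 20 intronic positions. The mature microRNA is shown with its seed in capitals; the intronic site itself could not be read.
miR-216a-5p: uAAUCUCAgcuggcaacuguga

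The 3′ UTR of Cadm2-201 held 3 matches to miR-216a (TGAGATT) and 1 to miR-216b (AGAGATT), and that of Cadm1-204 held 1 to miR-216a. That of Nrxn3-205 held 2 to miR-216a and 1 to miR-216b, and that of Grip1-201 held 1 to miR-216a. None of them had a crosslink within 20 nt in the table. A position enters the table only when at least 2 libraries share it, so sites seen in 1 library are not counted here.

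Other genes of synaptic adhesion had fewer positions than these 5, except Nlgn1. The 6 genes aside, 81 adhesion genes and 33 scaffold and receptor genes were listed with earlier results known. Of the 81 adhesion genes, 24 had an intronic position and 28 an exonic one, beside 5.78% and 19.1% of all protein-coding genes. Among the 45 of them with at least 100 kb of intron, 19 (42.2%) had an intronic and 14 (31.1%) an exonic position, beside 29.5% and 32.6% of the long genes. Nlgn1, a postsynaptic partner of the neurexins, had 84 of the list's 155 intronic positions, 1 exonic position and 9.41 intronic positions per 100 kb; without it the list's pooled intronic density was 0.217 per 100 kb in place of 0.462, beside 0.250 over all protein-coding genes. Next by intronic count were Adgrl3 (a latrophilin) and Tenm3 (a teneurin), with 8 each, and Lsamp, with 7. Ptprd, a presynaptic receptor phosphatase, was the adhesion gene with the most exonic positions (7, beside 2 intronic). Of the 33 scaffold and receptor genes, 11 (33.3%) had an intronic and 13 (39.4%) an exonic position. Among the 20 of them with at least 100 kb of intron, 11 of 20 had an intronic and 10 of 20 an exonic position, beside the 29.5% and 32.6% of long genes given above. Magi2 had 7 intronic and 5 exonic positions, Lin7c had 8, Homer1 4 and Apba1 3, the last 3 genes having exonic positions only.

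Among paralogues of Cadm1, Cadm2 and Ncam1, chosen after their values were seen, Cadm3 had 1 intronic and 3 exonic positions, and Ncam2 had 1 intronic position. By the shares of positions that fell in introns, noncoding exons and each part of the coding transcript, among 155 other genes with at least 10 positions, Grip1 was nearest to Purg (total variation distance 0.0212) and Nlgn1 (0.0337), and Cadm1 to the RNA-binding protein genes Msi2 (0.0163) and Celf2 (0.0695). Ncam1 was nearest to the synaptic vesicle gene Syt1 (0.0365), which had 12 intronic and 11 exonic positions, and to Frmd4a (0.0576). Nrxn3 and Cadm2 were nearest to Purg and Tmtc2, at 0.0690 for both with Nrxn3, and 0.0667 and 0.0424 with Cadm2. Purg had 6 of 15 positions in 3 or more libraries and Nlgn1 7 of 85.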

How the data were processed

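The deposited tables pool the 5 Argonaute libraries. Per the file headers, the score in the crosslink table is the number of samples that share a position, in mm10. The miR-216 table has no header; all 404 deposited entries had a crosslink with an equal score 15 nt or less from the match start. CASAVA 1.8.2, STAR and bedtools appear in the submitters' processing notes without settings. Genes and lists were chosen with earlier results of these data known.

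Positions were annotated on the same strand. A position in several classes was given the first of 3′ UTR, CDS, 5′ UTR, exon of a noncoding transcript and intron, with the UTR and CDS classes taken from protein-coding transcripts. All 25 exonic positions in these genes fell on T. Windows of 20 nt on either side came from spliced transcripts, and 56 of the 10992 exonic positions of all genes had no full window. Of 40 microRNA families listed, 38 had a mature sequence in the RefSeq table; miR-124-3p and miR-122-5p were not searched. The 7mers searched, on the transcript strand only, were CTACCTC (let-7), ACCAAAG (miR-9-5p), CTCAGGG (miR-125-5p), TGAATGT (miR-181-5p), GCACTTT (miR-17/miR-20/miR-93/miR-106-5p), TTTGCAC (miR-19-3p), GTGCAAT (miR-25/miR-32/miR-92/miR-363/miR-367-3p), TTGCACT (miR-130/miR-301-3p), TGCTGCT (miR-15/miR-16/miR-195/miR-497-5p), ATGCTGC (miR-103/miR-107-3p), TACTTGA (miR-26-5p), TGTTTAC (miR-30-5p), AATGTGA (miR-23-3p), ACTGTGA (miR-27-3p), GTGCCAA (miR-96-5p), TTGCCAA (miR-182-5p), GTGCCAT (miR-183-5p), AAAGGGA (miR-204/miR-211-5p), TGGTGCT (miR-29-3p), CACTGTG (miR-128-3p), AAGCCAT (miR-135-5p), AGCAATA (miR-137-3p), CACCAGC (miR-138-5p), CTATGCA (miR-153-3p), GTCTTCC (miR-7-5p), CACTGCC (miR-34/miR-449-5p), GACTGTT (miR-132/miR-212-3p), AAGCACA (miR-218-5p), GTACTGT (miR-101-3p), CTGAGCC (miR-24-3p), GGCAGCT (miR-22-3p), TGCACTG (miR-148/miR-152-3p), TACGGGT (miR-99/miR-100-5p), ACATTCC (miR-1/miR-206-3p), GGACCAA (miR-133-3p), AACTGAC (miR-223-3p), TGAGATT (miR-216a-5p), AGAGATT (miR-216b-5p). In 11 pairs the end of the first 7mer shares 5 or more bases with the start of the second: miR-101-3p with miR-27-3p, miR-103/miR-107-3p with miR-15/miR-16/miR-195/miR-497-5p, miR-128-3p with miR-27-3p, miR-130/miR-301-3p with miR-148/miR-152-3p, miR-130/miR-301-3p with miR-17/miR-20/miR-93/miR-106-5p, miR-133-3p with miR-9-5p, miR-148/miR-152-3p with miR-128-3p, miR-148/miR-152-3p with miR-34/miR-449-5p, miR-181-5p with miR-23-3p, miR-19-3p with miR-130/miR-301-3p, miR-19-3p with miR-148/miR-152-3p.

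Shares have Clopper-Pearson and densities exact Poisson intervals at 95%. Odds ratios are conditional estimates, with a threshold of 0.05 for the Fisher's exact test. Python 3.11.15 and scipy 1.17.1 were used, and the match finder and the test were tested on simulated data. Named genes are the 6 genes, the 5 listed genes with the most intronic and the 5 with the most exonic positions (ties by symbol), and for each gene with at least 10 positions its 2 nearest genes by class shares. Outside this rule, Cadm3 and Ncam2 were named after their values were seen, and Helb for the position opposite Grip1. The alternatives changed the library threshold, merging, exon set, genes included, cluster distance, window and match type. No value per library was used, and read depth is unknown. One result was left out and is not reported here.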

Additional observations from a re-analysis of the deposited data

How the results depend on the processing

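With the test limits given above, the odds ratio of exonic against intronic recurrence stayed above 1 with p under 0.05 in every alternative run. It was 8.06 (Fisher's exact test, p = 0.00162) with close positions merged, and from 4.70 without Cadm1 (0.954 to 23.3, p = 0.0290) to 11.0 without Nrxn3; the interval without Cadm1 reaches below 1. At 4 or more libraries it had no finite value, since no intronic position reached 4 (lower bound 2.54, p = 0.00190 by Fisher's exact test). The intronic share was 41.7% among the 12 positions in 3 or more libraries and 86.7% without Ncam1, in place of 78.1%, and from 73.9% to 80.7% in the others. Over all genes, 226 intronic and 3254 exonic positions were in 3 or more libraries. With clusters formed only from positions in 3 or more libraries, the clustered share was 0% (0 of 12, with an exact interval up to 26.5%). That setting leaves out the partners, in 2 libraries each, of the Ncam1 positions at 49504456 and 49504628, which are clustered in the full set. The clustered share was 5.26% within 20 nt and 14.0% within 200 nt. The share of exonic crosslinks with a match was 12.0% for 8mers, and from 24.0% to 40.0% in the others, the highest with 30 nt on either side. The causes of these differences were not tested. The miR-216 count stayed at 1 with sites assigned by a nearby crosslink. No paired analysis was possible because both tables pool the libraries, and leaving out single libraries could not be computed either. RNA level and the IgG background were not analysed here.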

Other observations

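On the opposite strand, Nrxn3 held 1 position, at 89718983 on chromosome 12, in 2 libraries and in no annotated gene. Grip1 held 1, at 120084320 on chromosome 10, in 2 libraries, in the 3′ UTR of Helb, a DNA helicase gene that overlaps the end of Grip1 on the other strand. Nrxn2, Ncam1, Cadm1 and Cadm2 held none.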
